A study of Arabidopsis thaliana with 18 samples.

Results

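The chloroplast-encoded genes of Arabidopsis thaliana were described across 6 groups of plants. They are the genes of the table whose locus number begins with ATCG, and 70 of 133 such loci reached 1 FPKM, a fragment density corrected for transcript length and library size, in at least 1 group. The table held 33557 genes, of which 19639 passed the same limit. The plants were natural accessions from Italy (IT) and Sweden (SW), called ecotypes in the labels, which give no further genotype. All were grown on soil at 22 °C with 12 h of light at 100 to 120 µmol m-2 s-1 for 18 days. The warm groups were then harvested, and the cold groups spent 1 or 2 weeks more at 4 °C with about 35 µmol m-2 s-1. Entire aerial parts were taken 4 h after lights on, as 3 libraries for each of the 6 groups. Cold, dimmer light and greater age therefore cannot be told apart in a comparison of cold with warm plants.

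The chloroplast keeps a small genome of its own, left from a cyanobacterial ancestor. It encodes core subunits of the photosynthetic complexes in the thylakoid membrane, the large subunit of the carbon-fixing enzyme Rubisco, and part of the machinery that reads these genes. A plastid-encoded polymerase of bacterial type (PEP), made from the rpo genes and steered by nuclear-encoded sigma factors, transcribes most photosynthesis genes. A nuclear-encoded polymerase of phage type (NEP) reads the rpoB, rpoC1 and rpoC2 genes themselves and a few others. Neighbouring genes are commonly transcribed together, and their long transcripts are cut, spliced and protected by nuclear-encoded RNA-binding proteins.

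Among the members with the widest differences were very short genes, and 4 of them are shown to make their size plain. psbI (ATCG00080) encodes a small photosystem II subunit and lay at Pltd:7583-7693 on the plus strand of TAIR10.1. psbM (ATCG00220), whose product sits at the contact of the photosystem II dimer, lay at Pltd:28707-28811 on the minus strand. petG (ATCG00600), a small subunit of the cytochrome b6f complex, lay at Pltd:65998-66111 on the plus strand. rpl33 (ATCG00640), a protein of the large ribosomal subunit, lay at Pltd:67488-67688 on the plus strand. The coding sequences below are the RefSeq ones of TAIR10.1, 5′ to 3′ on the coding strand, with the start and stop codons in capitals. They were 111, 105, 114 and 201 bases long in that order, so short that the length correction in FPKM can weigh heavily on their levels.
psbI: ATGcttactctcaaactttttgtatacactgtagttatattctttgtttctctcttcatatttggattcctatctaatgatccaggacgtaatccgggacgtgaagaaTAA
psbM: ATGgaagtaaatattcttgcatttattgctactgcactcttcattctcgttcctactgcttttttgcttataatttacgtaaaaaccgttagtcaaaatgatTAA
petG: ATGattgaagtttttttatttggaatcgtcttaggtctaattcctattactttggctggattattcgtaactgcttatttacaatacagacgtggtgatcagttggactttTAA
rpl33: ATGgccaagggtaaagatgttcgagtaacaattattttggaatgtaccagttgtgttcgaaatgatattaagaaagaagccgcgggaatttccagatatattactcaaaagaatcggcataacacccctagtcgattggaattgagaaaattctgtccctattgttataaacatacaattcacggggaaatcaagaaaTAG
These are Columbia reference sequences, and differences of IT or SW from them were not analysed here.

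The table gave 1 value per gene and group, which the authors made from the 3 libraries of that group. There was therefore no replicate spread, no test and no p-value, and the differences given here describe these 6 combined values. Sequencing depth is unknown, because the files hold no counts. Differences are log2 ratios of FPKM + 1. Past 2-fold means a log2 ratio of at least 1 in size, and a value of exactly 0 was treated as missing. Most plastid transcripts lack long poly(A) tails, and the sources used here do not say how RNA was selected for the libraries, so levels are relative to these libraries. In such tissue samples, fewer chloroplasts or green cells and less RNA per cell cannot be told apart. The labelled tissue was checked with its markers. Summed FPKM of 5 leaf genes was 6691 to 10992 over the 6 groups, with 1 or 2 of the 5 listed at 0 in each group. CAB3 was at 0 in all 6 groups. RCA was at 0 in both warm groups but between 2194 and 2682 FPKM in the cold groups. The leaf sums therefore cannot be compared between warm and cold. The other leaf genes, CA1, GLO1 and LHCB5, were lower in each cold group than in the warm group of the same ecotype. The sums of 5 root genes were 2.78 to 37.3, of 5 flower genes 0.440 to 7.22 and of 4 seed genes 0.0625 to 0.154. The root sum was highest in both warm groups, and most of it was PYK10 (AT3G09260), with 35.1 FPKM in IT warm and 26.9 FPKM in SW warm. The flower sum was highest in IT after 2 weeks of cold. The part of root and flower tissue in the results was not tested.

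Gene names are those of the standard Arabidopsis nomenclature, since neither the table nor the reference annotation pairs ATCG numbers with names. The order of 71 single-copy loci, taken as 70 neighbouring pairs, matched the order of the named genes in RefSeq in 70 of 70 pairs. Of the 70 members, 67 encode proteins and 3 are transfer RNA loci. All 15 photosystem II genes, all 6 ATP synthase genes, all 4 polymerase genes and rbcL were members. So were all 7 photosystem I genes, counting the assembly factor genes ycf3 and ycf4. The cytochrome b6f group had 6 of 7, the NDH complex 7 of 12, ribosomal proteins 18 of 26 and other proteins 3 of 8. Of the loci left out, 53 were listed at 0 in all 6 groups and 10 were above 0 but under 1 FPKM. The zeros took in 8 ribosomal protein loci, 36 loci outside the functional lists, and the protein genes present as 2 copies in the inverted repeat, such as ycf2 (ATCG00860). None of the 8 ribosomal RNA loci reached the limit.

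Just under the limit, the highest value in any group was 0.921 FPKM for accD (ATCG00500, a subunit of the enzyme that starts fatty acid synthesis), 0.888 for ndhI and 0.553 for ccsA. Just above it stood ndhA at 1.02, ndhD at 1.15 and rpoC2 at 1.22 FPKM. ndhF (ATCG01010), another subunit gene of the NDH complex, had between 0.215 and 0.421 FPKM, and ycf1, which encodes a protein of the envelope import machinery, had between 0.144 and 0.374 FPKM at its listed copy ATCG01130. The members therefore do not give the whole chloroplast genome.

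**Figure D1:**
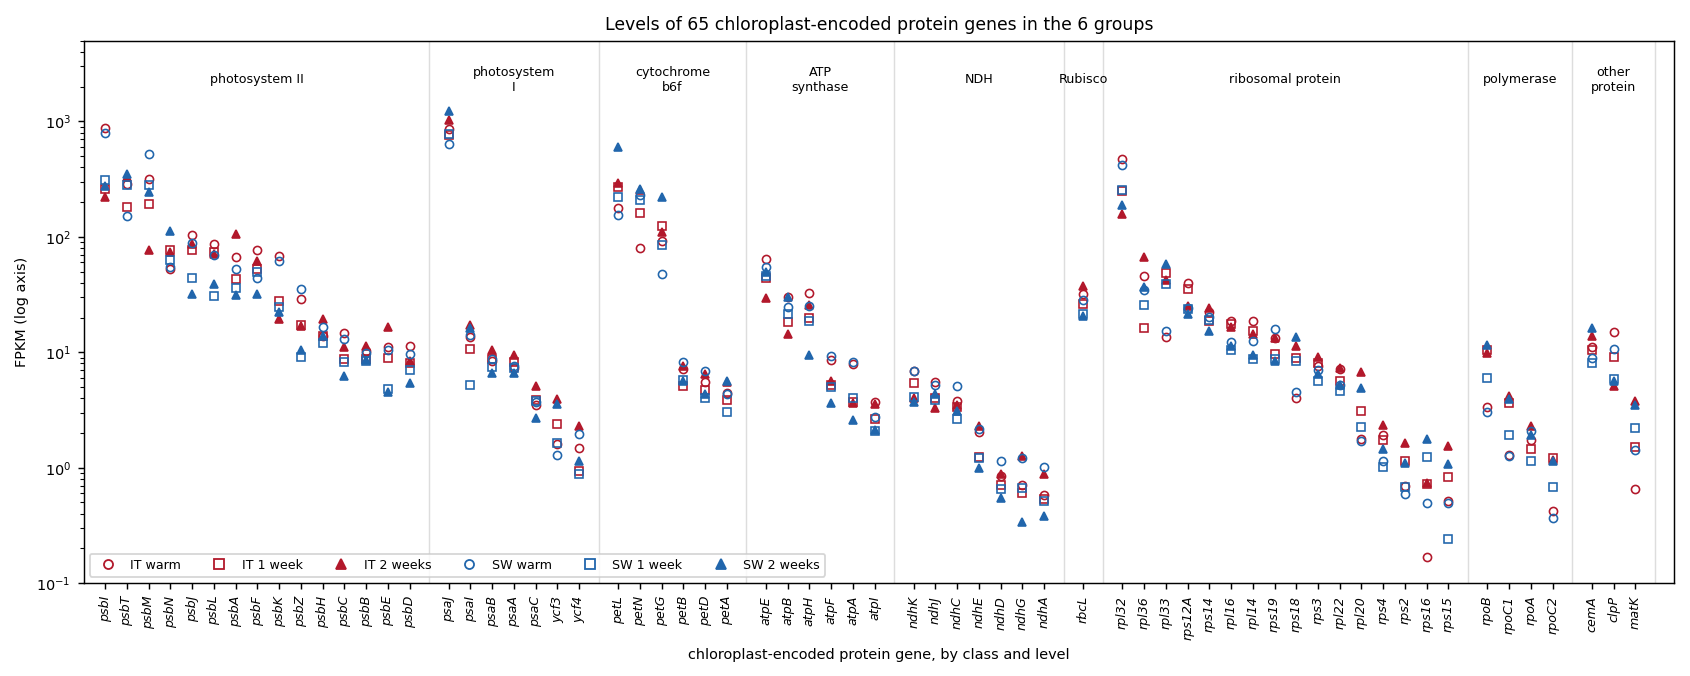
FPKM of 65 of the 67 chloroplast-encoded protein genes (vertical log axis) in the 6 groups, by functional class and then by level on the horizontal axis. Each point is the authors' single combined value of a group, red for IT and blue for SW. psaJ stands highest, and the rpoB points of the cold groups lie above the warm ones in both ecotypes.

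Levels of the protein-coding members ran from 0.169 FPKM for rps16 (ATCG00050) in IT warm to 1237 FPKM for psaJ in SW after 2 weeks, and the highest belonged to very short genes. psaJ (ATCG00630), a small photosystem I subunit, stood at 863, 768 and 1029.6 FPKM in IT in the warm, after 1 week and after 2 weeks of cold, and at 634, 776 and 1237 FPKM in SW. Next in the order of geometric means came psbI at 388, the ribosomal protein gene rpl32 (ATCG01020) at 269, petL (ATCG00590) at 257 and psbT (ATCG00690) at 251 FPKM. Among members of at least 1000 bases psbA (ATCG00020) was highest, with a geometric mean of 51.4 FPKM. Lengths are gene spans from start to end in RefSeq, any introns included, and can exceed the transcript length that FPKM corrects for. rps12A (ATCG00065) had no such length and is in no length class. The median of the geometric means was 102 FPKM for 13 members under 150 bases, 16 for 10 of 150 to under 300 bases, 4.29 for 21 of 300 to under 1000 bases and 6.49 for 22 of at least 1000 bases. Levels of genes of such different length are therefore compared below mainly within a gene, between groups.

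The share of all FPKM held by chloroplast loci was 0.551%, 0.346% and 0.407% in IT in the warm, after 1 week and after 2 weeks, and 0.471%, 0.322% and 0.420% in SW. It was lowest after 1 week of cold in both ecotypes. The sums behind these shares were 4539, 3506 and 3711 FPKM in IT and 4256, 3235 and 4344 FPKM in SW, and a few short genes made up much of them. The sums and shares also take in the 3 transfer RNA members, each listed at 0 in some group. 1 of these, ATCG00090, had 305 FPKM in IT after 1 week and 0 in SW after 2 weeks. Mitochondrial loci held 0.0212%, 0.0132% and 0.0231% in IT and 0.0129%, 0.00810% and 0.00828% in SW. Over 14 mitochondrial genes with a ratio, the median log2 ratio of cold against warm was -0.41 and -0.10 in IT and -0.19 and -0.27 in SW after 1 and 2 weeks.

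In the cold, members were higher as well as lower than in the warm, and the median over all of them moved little. After 1 week in IT, 3 of 67 protein genes lay above the warm level by 2-fold or more and 3 below it, a smaller share than the 17.9% of all genes past 2-fold. After 2 weeks in IT, 7 were higher and 7 lower, beside 13.5% of all genes. In SW, 1 was higher and 5 lower after 1 week (14% of all genes), and 10 were higher and 10 lower after 2 weeks (14% of all genes). By direction, the background after 1 week was 10% higher and 7.91% lower in IT, and 7.81% higher and 6.2% lower in SW. After 2 weeks it was 7.03% higher and 6.43% lower in IT, and 6.54% higher and 7.47% lower in SW. Median log2 ratios of the 67 genes after 1 and 2 weeks were -0.23 and 0.21 in IT and -0.38 and -0.21 in SW, while those of all genes were 0.00 and 0.04 in IT and 0.03 and 0.01 in SW. The 2 comparisons of an ecotype share its warm group, so their values stand side by side and are not independent.

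The counts moved with the scaling of the groups. Scaled to nuclear reference genes, the median of all genes shifted by -0.13 and -0.17 in IT and by -0.15 and -0.16 in SW on the log2 scale. The split of higher against lower then became 2 against 5 in IT after 1 week and 5 against 14 in SW after 2 weeks. With the sum of nuclear FPKM it was 2 against 6 and 5 against 14. Without the 1 of 12 reference genes that stayed under 1 FPKM, left out after seeing the data, it was 2 against 5 and 7 against 11. Of 46 calls of a member in a cold comparison, 39 held under all 4 scalings, and 0 changed sign.

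**Figure D2:**
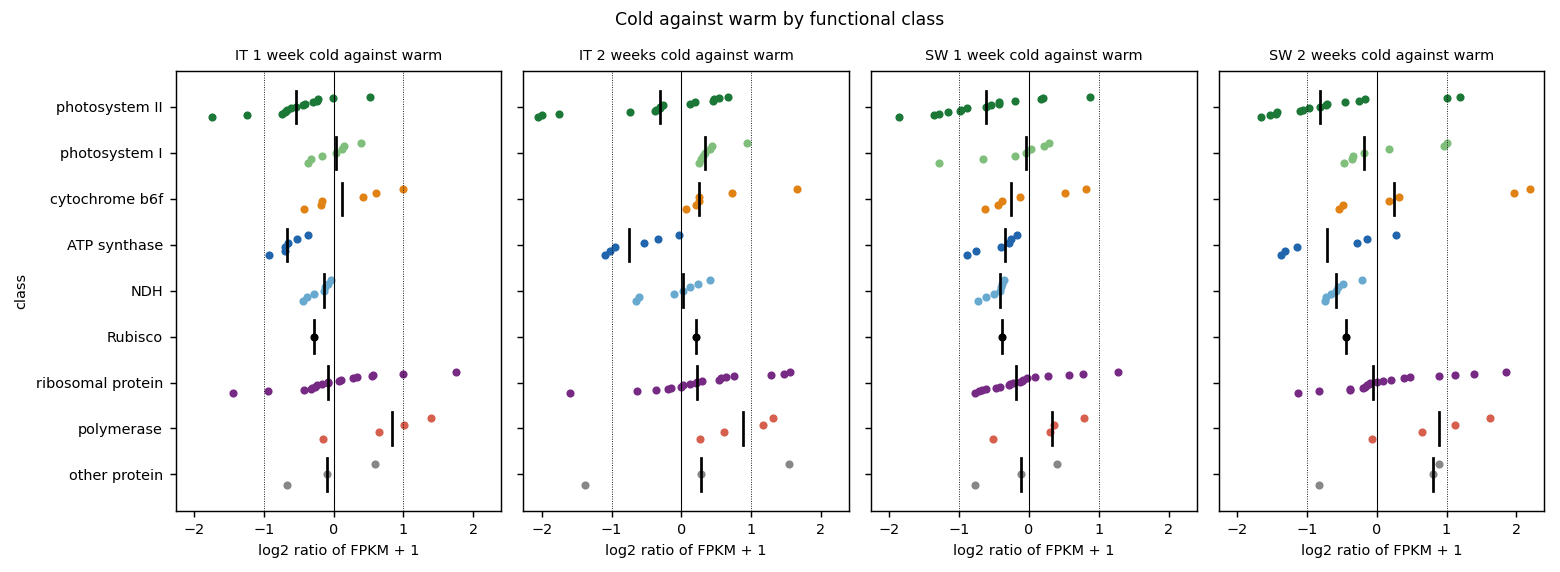
Log2 ratio of FPKM + 1, cold against warm (horizontal axis), for each protein gene by functional class (vertical axis), with 1 panel per comparison. Points are genes, black bars class medians and dotted lines 2-fold. Photosystem II and ATP synthase medians lie left of 0 in all 4 panels, and polymerase medians right of it.

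Photosystem II, the complex that splits water, held a large part of the lower genes. Its 15 genes had median log2 ratios of -0.55 and -0.30 in IT and -0.62 and -0.82 in SW after 1 and 2 weeks. At least 2-fold lower were 2, 3, 4 and 6 of them in that order, out of 3, 7, 5 and 10 lower members in all, and 2 were higher, both in SW after 2 weeks. The background of lower genes was 7.91% and 6.43% in IT and 6.2% and 7.47% in SW. All the photosystem II genes counted as lower were under 300 bases long. None of psbA, psbB, psbC and psbD, each of at least 1000 bases, was among them. Class and gene length therefore cannot be told apart in these counts.

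psbI stood at 876, 262 and 219.6 FPKM in IT in the warm, after 1 week and after 2 weeks, and at 798, 311 and 275 FPKM in SW. All 4 cold values lay far below both warm ones, with log2 ratios of -1.74 and -1.99 in IT and -1.35 and -1.53 in SW. Its neighbour psbK (ATCG00070), which encodes another small subunit of the complex, had 67.8, 28.0 and 19.5 FPKM in IT and 62.1, 24.8 and 22.4 FPKM in SW. The log2 ratios of psbK were -1.24 and -1.75 in IT and -1.29 and -1.43 in SW with the same order of cold below warm. psbM had 319.9, 192 and 76.4 FPKM in IT and 523, 283 and 244 FPKM in SW, higher in SW than in IT in each condition. Its log2 ratio was -2.05 in IT after 2 weeks, the lowest of any protein-coding member in any cold comparison. psbZ (ATCG00300), a further small subunit gene, had 28.7, 17.3 and 16.9 FPKM in IT and 35.4, 9.04 and 10.5 FPKM in SW, with log2 ratios of -0.70 and -0.73 in IT and -1.86 and -1.66 in SW.

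The large core genes differed less. psbA encodes D1, the reaction centre protein that light damages and that is replaced fastest. It stood at 66.8, 43.5 and 106 FPKM in IT and at 52.6, 35.8 and 31.6 FPKM in SW, so that IT after 2 weeks was the highest of the 6 values and SW after 2 weeks the lowest. The log2 ratios of psbA were -0.61 and 0.66 in IT and -0.54 and -0.72 in SW, within 2-fold in each. psbD (ATCG00270), which encodes the partner protein D2, had 11.3, 8.04 and 8.42 FPKM in IT and 9.71, 6.96 and 5.45 FPKM in SW. psbC (ATCG00280), an inner antenna gene that overlaps the end of psbD by 53 bases on the same strand, had 14.8, 8.80 and 11.2 FPKM in IT and 13.1, 8.16 and 6.21 FPKM in SW. Both were lower in all 4 cold groups than in the warm. Log2 ratios lay between -0.38 and -0.73 for psbD and between -0.37 and -0.97 for psbC. None was past 2-fold on the scale of FPKM + 1, before any scaling of the groups. In plain FPKM, psbC in SW after 2 weeks had a fold of 0.474, which is past 2-fold.

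The psbE, psbF, psbL and psbJ genes lie side by side and encode the cytochrome of photosystem II and 2 small subunits beside it. psbE (ATCG00580) had 11.1, 8.86 and 16.6 FPKM in IT and 10.4, 4.81 and 4.53 FPKM in SW, and psbJ (ATCG00550) had 103, 77.6 and 86.4 and 88.2, 44.0 and 31.7 FPKM. In SW after 2 weeks their log2 ratios were -1.05 and -1.45, beside 0.54 and -0.26 in IT. The higher genes were psbT, a small subunit at the dimer contact, and psbN (ATCG00700), which encodes an assembly factor of the complex. psbT had 286, 179.9 and 329 FPKM in IT and 153, 280.3 and 349 FPKM in SW, and psbN 53.0, 76.6 and 73.6 and 55.2, 63.4 and 112 FPKM. Their log2 ratios in SW after 2 weeks were 1.19 and 1.01, and under scaling to reference genes or the nuclear sum neither stayed past 2-fold (0.99 for psbT under both). Without the reference gene under 1 FPKM, a choice made after seeing the data, psbT had 1.01. psbN lies on the strand opposite to its neighbours psbT and psbH, and whether counting used strand is not given in the sources used here.

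Photosystem I genes mostly stayed near their warm levels. The 7 genes had median log2 ratios of 0.03 and 0.33 in IT and -0.04 and -0.18 in SW, and the value of 0.03 ranged from -0.24 to 0.10 over the scalings. psaA (ATCG00350) and psaB (ATCG00340), which encode the reaction centre pair, had 7.26, 8.18 and 9.40 and 8.47, 8.69 and 10.5 FPKM in IT and 7.57, 7.35 and 6.57 and 8.79, 7.49 and 6.65 FPKM in SW. The largest of their 8 log2 ratios in either direction was -0.35. psaI (ATCG00510), a small subunit gene, was low in 1 group, with 13.6, 10.7 and 17.2 FPKM in IT and 14.2, 5.22 and 16.3 FPKM in SW and a log2 ratio of -1.29 in SW after 1 week. ycf3 (ATCG00360), an assembly factor gene, had 1.60, 2.41 and 3.97 FPKM in IT and 1.30, 1.65 and 3.60 FPKM in SW, with log2 ratios of 0.94 and 1.00 after 2 weeks.

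Cytochrome b6f genes, whose complex passes electrons between the photosystems, were mixed. Their median log2 ratios were 0.12 and 0.26 in IT and -0.26 and 0.24 in SW, and the 0.12 ranged from -0.15 to 0.12 over the scalings. petG had 92.0, 123 and 110.3 FPKM in IT and 47.7, 84.7 and 221 FPKM in SW, and SW after 2 weeks was the highest group. petL, the small subunit gene beside it, had 177, 269.6 and 293 FPKM in IT and 154, 221 and 603 FPKM in SW, with the same group on top. Log2 ratios in SW after 2 weeks were 2.19 for petG, the highest of any member in any cold comparison, and 1.96 for petL. petN (ATCG00210), the third small subunit gene, had 80.5, 161 and 256 FPKM in IT and 231, 210.4 and 259.8 FPKM in SW, low in IT warm alone. The larger genes petB (ATCG00720) and petD (ATCG00730), which form the core of the complex, had log2 ratios of -0.43 and 0.06 in IT and -0.44 and -0.48 in SW and of -0.18 and 0.21 in IT and -0.64 and -0.54 in SW. petA, the cytochrome f gene, had -0.17 and 0.26 in IT and -0.39 and 0.31 in SW.

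ATP synthase genes were lower in the cold as a class. The 6 genes had median log2 ratios of -0.67 and -0.74 in IT and -0.35 and -0.71 in SW, and all 6 were below 0 in the first 3 of these comparisons and 5 in the last. On the scale of FPKM + 1, at least 2-fold lower were 2 in IT and 3 in SW after 2 weeks, beside 6.43% and 7.47% of all genes. None was so after 1 week, beside 7.91% and 6.2%. In plain FPKM, atpA had folds of 0.468 and 0.458 in IT and 0.486 and 0.314 in SW, past 2-fold in each. atpA (ATCG00120), the alpha subunit of the catalytic head, had 7.93, 3.71 and 3.63 FPKM in IT and 8.20, 3.99 and 2.57 FPKM in SW, with both warm values above all 4 cold values. atpF (ATCG00130), a stalk subunit, had 8.66, 5.16 and 5.64 FPKM in IT and 9.24, 5.03 and 3.66 FPKM in SW, and atpH (ATCG00140), the ring subunit, 32.8, 19.9 and 25.9 and 25.2, 18.7 and 9.51 FPKM. Their log2 ratios in SW after 2 weeks were -1.37, -1.14 and -1.32.

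The other ATP synthase pair, atpB (ATCG00480, the beta subunit) and atpE (ATCG00470, the epsilon subunit), overlaps by 4 bases on the same strand and went with the ecotype. atpB had 30.3, 18.3 and 14.4 FPKM in IT and 24.5, 21.6 and 30.0 FPKM in SW, and atpE 64.0, 44.1 and 29.4 and 54.6, 45.6 and 49.6 FPKM. After 2 weeks the log2 ratios were -1.03 and -1.09 in IT but 0.28 and -0.14 in SW. rbcL (ATCG00490), the Rubisco large subunit gene that lies next to atpB on the other strand, had 31.9, 26.0 and 37.2 FPKM in IT and 28.3, 21.3 and 20.5 FPKM in SW, with log2 ratios of -0.28 and 0.22 in IT and -0.39 and -0.45 in SW. The ratio of atpB to rbcL within a group, which no scaling by a common factor can move, was 0.951, 0.704 and 0.386 in IT and 0.866, 1.01 and 1.46 in SW. It was lower in each cold group than in the warm in IT and higher in SW.

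None of the 7 NDH members, which encode part of the complex for cyclic electron flow, passed 2-fold in a cold comparison on the scale of FPKM + 1. Their median log2 ratios were -0.14 and 0.03 in IT and -0.42 and -0.58 in SW, and the 0.03 ranged from -0.07 to 0.03 over the scalings. ndhK (ATCG00430), the highest of them by geometric mean, had 6.87, 5.47 and 4.03 FPKM in IT and 6.86, 4.10 and 3.72 FPKM in SW. The ndhD, ndhG and ndhA genes stayed at or below 1.27 FPKM in every group, where the added 1 pulls ratios toward 0. In plain FPKM, 4 of the 7 were more than 2-fold lower in SW after 2 weeks, with folds of 0.282 for ndhG, 0.375 for ndhA, 0.467 for ndhE and 0.472 for ndhD, and none in the other cold comparisons. With a pseudocount of 0.1 the count was 3.

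Polymerase genes were the class with the highest medians, and 3 of the 4 accounted for them. rpoB (ATCG00190), the beta subunit gene, had 3.37, 10.5 and 9.90 FPKM in IT and 3.07, 6.0 and 11.5 FPKM in SW. rpoC1 (ATCG00180), the beta prime gene, had 1.29, 3.62 and 4.16 FPKM in IT and 1.26, 1.91 and 3.94 FPKM in SW. rpoC2 (ATCG00170), the beta double prime gene, had 0.420, 1.22 and 1.16 FPKM in IT and 0.365, 0.682 and 1.14 FPKM in SW. Each of the 3 was higher in all 4 cold groups than in either warm group. Their log2 ratios of FPKM + 1 were 1.4 and 1.32 in IT and 0.78 and 1.62 in SW for rpoB, 1.01 and 1.17 in IT and 0.36 and 1.13 in SW for rpoC1 and 0.65 and 0.60 in IT and 0.30 and 0.65 in SW for rpoC2. Without the added 1, the fold of FPKM was 3.12 and 2.94 in IT and 1.96 and 3.76 in SW for rpoB. For rpoC2 it was 2.91 and 2.76 in IT and 1.87 and 3.12 in SW, so the log2 ratios understate this low gene. rpoA (ATCG00740), the alpha subunit gene, lies elsewhere among ribosomal protein genes and had 1.73, 1.46 and 2.29 FPKM in IT and 2.09, 1.15 and 1.94 FPKM in SW, with log2 ratios of -0.15 and 0.27 in IT and -0.52 and -0.07 in SW. The rpo class medians of 0.83 and 0.89 in IT and 0.33 and 0.89 in SW therefore stand for the rpoB, rpoC1 and rpoC2 run and not for rpoA. accD and ycf2, also known to be read by the nuclear-encoded polymerase, were not members, accD because it stayed under 1 FPKM and ycf2 because it was listed at 0.

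The rpo run continues on the same strand into rps2 and 4 ATP synthase genes, and the difference from the warm went from above 0 to below 0 along it. In IT after 1 week the log2 ratios in the direction of the strand were 1.4 for rpoB, 1.01 for rpoC1, 0.65 for rpoC2, 0.33 for rps2, -0.36 for atpI, -0.69 for atpH, -0.65 for atpF and -0.92 for atpA. In SW after 2 weeks they were 1.62, 1.13, 0.65, 0.40, -0.28, -1.32, -1.14 and -1.37 in the same order. The order was not even, since atpF lay above atpH in both. Among the 3 polymerase genes the added 1 makes much of the fall, and the plain folds of FPKM were 3.12, 2.80 and 2.91 in IT after 1 week and 3.76, 3.12 and 3.12 in SW after 2 weeks. The polymerase end was above 0 and the ATP synthase end below 0 in each of the 4 cold comparisons. The ratio of rpoB to atpA within a group was 0.425, 2.83 and 2.72 in IT and 0.374, 1.51 and 4.48 in SW. rpoB stood below atpA in both warm groups and above it in all 4 cold groups, on the FPKM scale, which is per length.

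**Figure D3:**
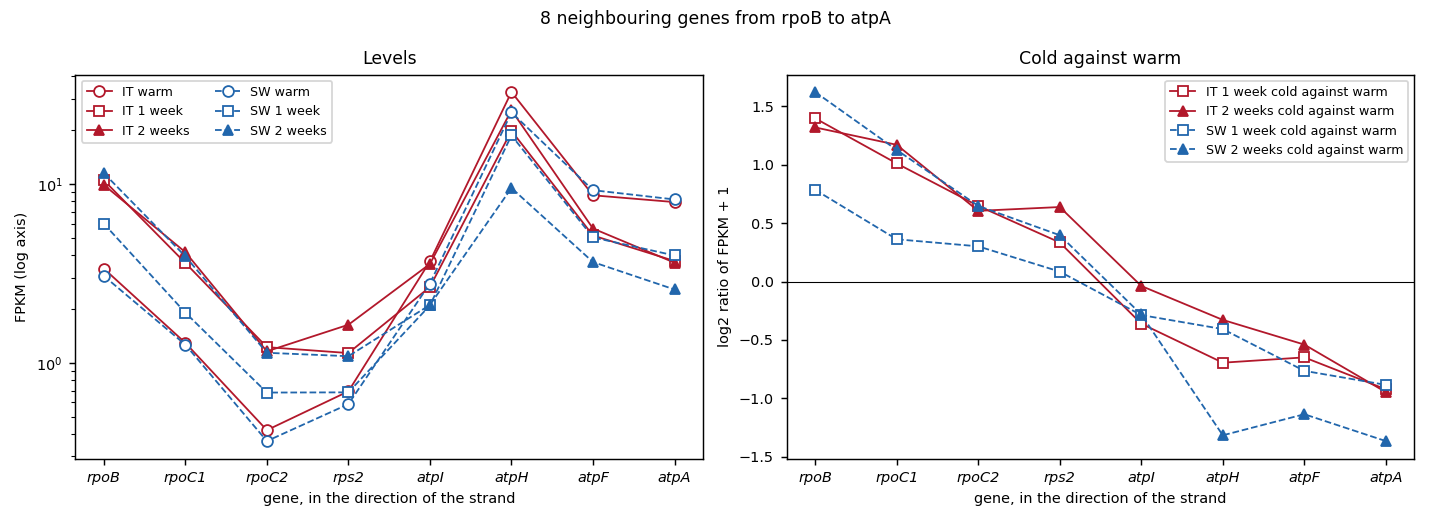
The 8 neighbouring genes from rpoB to atpA in the direction of their strand (horizontal axis), as FPKM on a log axis in the 6 groups (left) and as log2 ratios of FPKM + 1, cold against warm (right). Points are the authors' combined values or ratios of them, and lines join genes of a group or comparison. The ratios go from above 0 at rpoB to below 0 at atpA in all 4 comparisons.

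Ribosomal protein genes moved both ways. The 18 members had median log2 ratios of -0.08 and 0.22 in IT and -0.18 and -0.05 in SW, with 1 higher and 1 lower in IT after 1 week, 3 and 1 in IT after 2 weeks, 1 and 0 in SW after 1 week, and 3 and 1 in SW after 2 weeks. Over all genes the shares higher and lower in these comparisons were 10% and 7.91%, 7.03% and 6.43%, 7.81% and 6.2%, and 6.54% and 7.47%. The counts of members are on the scale of FPKM + 1, which pulls ratios of low genes toward 0. rps16, at or below 1.77 FPKM in every group, was counted as neither higher nor lower. Its plain folds of FPKM were 4.32 and 4.33 in IT and 2.47 and 3.55 in SW. Those of rps2 were 1.64 and 2.36 in IT and 1.16 and 1.85 in SW. A further member, at or below 1.55 FPKM, had 1.61 and 2.998 in IT and 0.490 and 2.19 in SW. rpl33, which in tobacco is dispensable in the warm but needed for recovery from cold, had 13.7, 48.3 and 42.1 FPKM in IT and 15.4, 38.7 and 58.0 FPKM in SW. All 4 cold values lay above both warm values, with log2 ratios of 1.75 and 1.55 in IT and 1.28 and 1.85 in SW. rps18 (ATCG00650), next to it on the same strand, had 4.05, 9.01 and 11.3 FPKM in IT and 4.5, 8.39 and 13.5 FPKM in SW, and rpl20 (ATCG00660), on the other strand, 1.79, 3.08 and 6.73 and 1.70, 2.26 and 4.86 FPKM. After 2 weeks their log2 ratios were 1.29 and 1.47 in IT and 1.4 and 1.12 in SW. These 3 proteins belong to different subunits of the ribosome, rpl33 and rpl20 to the large and rps18 to the small one.

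On the lower side, rpl32 had 477, 247 and 158 FPKM in IT and 417, 254 and 190.4 FPKM in SW, with log2 ratios of -0.94 and -1.59 in IT and -0.71 and -1.12 in SW. rpl36 (ATCG00760), one of the shortest ribosomal protein genes, had 46.1, 16.3 and 67.5 FPKM in IT and 34.6, 25.7 and 36.8 FPKM in SW, and its value in IT after 1 week lay below the other 5. rps19 (ATCG00820), in the long run that ends with rpoA, had a log2 ratio of -0.82 in SW after 2 weeks, within 2-fold.

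The members with other functions were clpP (ATCG00670), matK (ATCG00040) and cemA (ATCG00530). clpP, the catalytic subunit of the stromal Clp protease, had 14.9, 9.04 and 5.09 FPKM in IT and 10.8, 5.92 and 5.63 FPKM in SW, with log2 ratios of -0.66 and -1.38 in IT and -0.77 and -0.83 in SW. matK, a maturase that helps splice several plastid introns, had 0.651, 1.5 and 3.78 FPKM in IT and 1.43, 2.21 and 3.51 FPKM in SW, higher in each cold group than in the warm group of the same ecotype. Its log2 ratios were 0.60 and 1.54 in IT and 0.40 and 0.89 in SW. matK lies inside the intron of a transfer RNA gene, and reads of that precursor could not be told apart from its own here. cemA, an envelope membrane protein gene, had 11.2, 10.4 and 13.8 FPKM in IT and 8.87, 8.11 and 16.3 FPKM in SW, and none of its cold ratios passed 2-fold.

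The 3 transfer RNA members were each listed at 0 in some group. ATCG00090 was at 0 in SW after 2 weeks, with 235, 305 and 137 FPKM in IT and 232 and 72.8 in the other SW groups. ATCG00290 was at 0 in SW after 1 week and between 75.5 and 129 FPKM elsewhere. ATCG00370 was at 0 in IT warm and in IT after 2 weeks, and between 79.4 and 95.1 FPKM elsewhere. Values of this size beside zeros were read as failed estimates, so no difference is drawn from these loci by themselves. They do enter the chloroplast sums and shares given above.

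**Figure D4:**
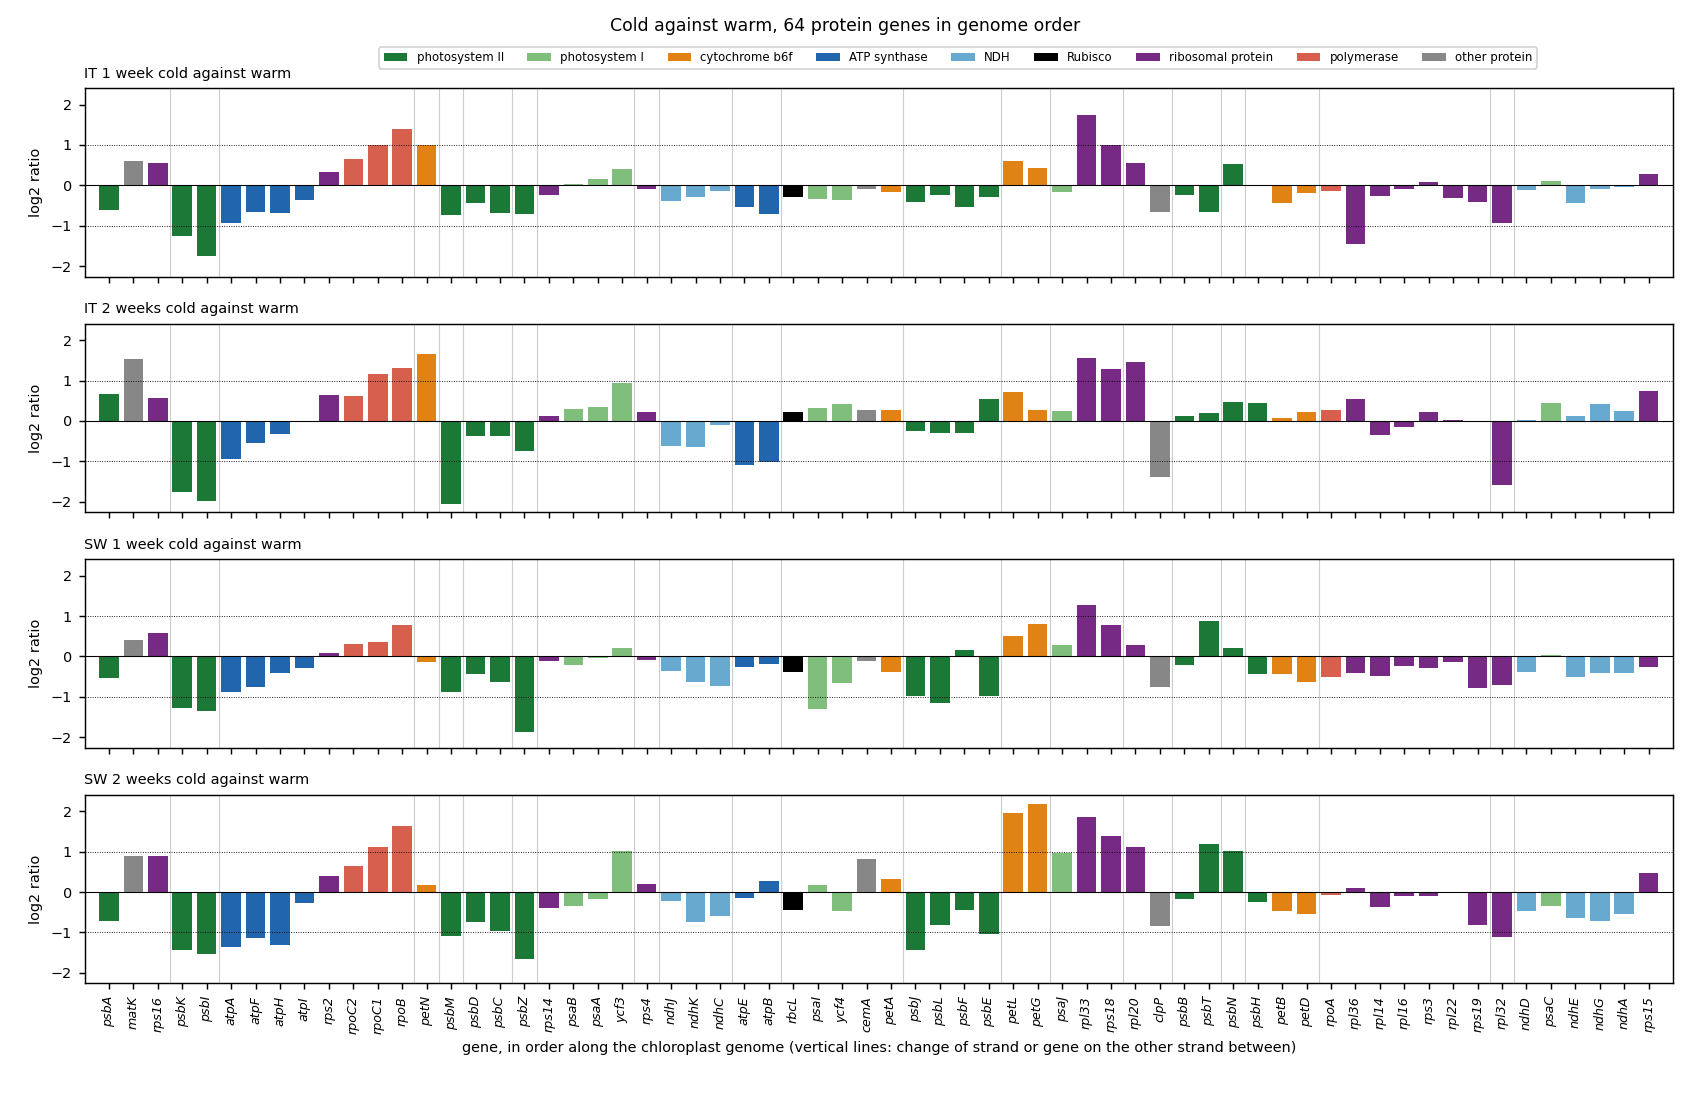
Log2 ratios of FPKM + 1, cold against warm (vertical axis), for 64 protein genes in their order along the chloroplast genome (horizontal axis), 1 panel per comparison. Bars are genes coloured by class, thin vertical lines part runs of genes on 1 strand, and dotted lines mark 2-fold. The median difference between neighbours on a strand was 0.27, 0.24, 0.22 and 0.27 in the 4 panels from top to bottom, though some neighbours, such as rpl33 and rps18 in the top panel, stand further apart.

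The median difference in cold response was smaller between neighbours on a strand than over all pairs of members. Over 39 pairs of neighbouring members on the same strand, the median absolute difference between the log2 ratios of the 2 genes was 0.27 and 0.24 in IT and 0.22 and 0.27 in SW after 1 and 2 weeks. Over all 2211 pairs of the 67 genes it was 0.52 and 0.69 in IT and 0.52 and 0.84 in SW. Neighbours can share a transcript and, where they overlap, reads, as rps3 and rpl22 do over 16 bases. psaJ, rpl33 and rps18 form a run of a photosystem I gene and 2 ribosomal protein genes. In SW after 2 weeks their log2 ratios were 0.96, 1.85 and 1.4, and in IT they were 0.25, 1.55 and 1.29, so that psaJ lay below the other two in both.

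Between 1 and 2 weeks of cold few members differed by 2-fold. In IT 2 were higher at 2 weeks and 1 lower, beside 3.29% of all genes (1.81% higher and 1.48% lower). These were rpl36 with a log2 ratio of 1.98, psbA with 1.27 and psbM with -1.32. In SW 3 were higher and 0 lower, beside 3.29% of all genes (0.408% higher and 2.88% lower), namely psaI with 1.47, petL with 1.44 and petG with 1.37. rpoB and rpoC1 were level in IT over this interval, with log2 ratios of -0.08 and 0.16, and further above the warm in SW at 2 weeks than at 1 week, with 0.84 and 0.76.

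The count of members that differed between the ecotypes rose from the warm to 2 weeks of cold, as did the share of all genes. After 2 weeks the share of members past 2-fold was close to that of all genes. SW against IT, 1 of 67 protein genes was past 2-fold in the warm, beside 6.9% of all genes (2.68% higher and 4.22% lower in SW). After 1 week it was again 1, beside 8.51% (4.57% higher and 3.95% lower). After 2 weeks 3 were higher and 4 lower in SW, beside 11.1% (3.92% higher and 7.19% lower). The gene in the warm was petN, with a log2 ratio of 1.51, and the gene after 1 week was psbL (ATCG00560), with -1.23. After 2 weeks psbM, petL and atpB were higher in SW, with 1.66, 1.04 and 1.01. Lower in SW were psbA with -1.72, psbE with -1.67, psbJ with -1.42 and atpH with -1.36. The split of 3 higher and 4 lower became 1 and 8 with scaling to the sum of nuclear FPKM and 2 and 4 with quantile normalization. Median log2 ratios of the 67 genes were -0.07, -0.19 and -0.36 in the warm, after 1 week and after 2 weeks.

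The difference between the cold responses of the ecotypes, SW minus IT, was past 1 on the log2 scale for 2 genes upward and 2 downward at 1 week, beside 7.32% of all genes (4.89% upward and 2.43% downward). At 2 weeks it was so for 3 upward and 5 downward, beside 7.28% (3.07% and 4.21%). At 2 weeks petG had a difference of 1.93, atpB of 1.31 and petL of 1.24, while psbE had -1.59, petN -1.49, psbA -1.38, psbJ -1.19 and ndhG (ATCG01080) -1.13. For psbA relative to psbB (ATCG00680), which encodes the other inner antenna protein and was steadier, the ratio within a group was 6.47, 5.02 and 9.36 in IT and 5.35, 4.28 and 3.65 in SW. psbE, with values given above, also stood highest in IT after 2 weeks. Mitochondrial loci did not share 1 order. ATMG00030 stood highest in IT after 2 weeks, with 32.8, 30.6 and 58.3 FPKM in IT and 25.7, 22.8 and 20.3 in SW. ATMG01380 stood highest in IT warm, with 63.2, 35.3 and 53.8 FPKM in IT and 34.3, 12.2 and 21.0 in SW. The mitochondrial median log2 ratio in IT after 2 weeks, given above, was negative. The part of organelle RNA as a whole in these values was not tested.

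**Figure D5:**
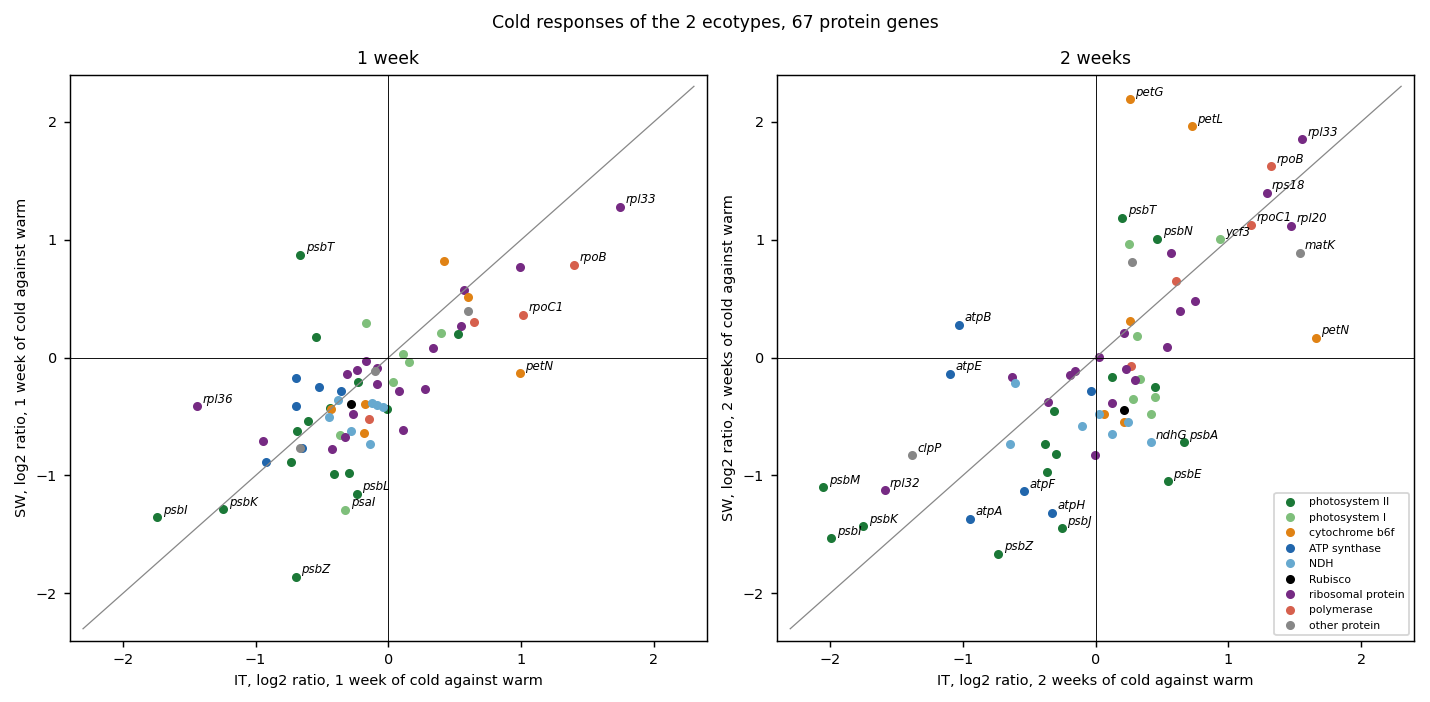
Log2 ratio of FPKM + 1, cold against warm, in IT (horizontal axis) and SW (vertical axis) for the 67 protein genes after 1 week (left) and 2 weeks (right). Points are genes coloured by class, the grey line marks equal ratios, and genes past 2-fold on an axis or in the difference are named. After 2 weeks petG and petL lie far above the line and psbA and psbE below it.

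Nuclear genes that serve the chloroplast genome were taken from 5 lists of 99 loci. Of 22 genes for plastid transcription, 10 were at least 2-fold higher in IT after 1 week and 1 lower. After 2 weeks 5 were higher in IT, and in SW 2 and 3 were higher after 1 and 2 weeks, with none lower. Their median log2 ratios were 0.90 and 0.43 in IT and 0.32 and 0.39 in SW, and the background of higher genes was 10% and 7.03% in IT and 7.81% and 6.54% in SW. RPOTP (AT2G24120, annotated as SCA3) encodes a nuclear-encoded polymerase of phage type, and had 17.3, 42.8 and 22.8 FPKM in IT and 21.4, 38.6 and 35.5 FPKM in SW. SIG5 (AT5G24120, annotated as SIGE), the sigma factor known to steer the light-responsive promoter of psbD, had 70.2, 23.9 and 36.0 FPKM in IT and 37.3, 20.1 and 24.5 FPKM in SW, with log2 ratios of -1.52 and -0.94 in IT and -0.86 and -0.59 in SW. FSD2 (AT5G51100), an iron superoxide dismutase found with the plastid polymerase, had log2 ratios of 2.06 and 1.76 in IT and 1.57 and 1.99 in SW.

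Of 15 genes for plastid RNA processing, 6 and 3 were higher in IT and 3 and 4 in SW, and none lower. Over all genes 10% and 7.03% were higher in IT and 7.81% and 6.54% in SW. CP29A (AT3G53460, annotated as CP29) encodes an RNA-binding protein known to protect chloroplast transcripts in the cold, and had 366, 1976 and 1118 FPKM in IT and 394, 1581 and 1379.6 FPKM in SW. CP31A (AT4G24770, annotated as RBP31), its relative with the same known role, had log2 ratios of 0.31 and 0.13 in IT and -0.25 and 0.03 in SW. The nuclear subunits of the same complexes were mostly lower. Of 31 genes for photosystem, cytochrome, ATP synthase and Rubisco subunits with a ratio, 10 and 19 were lower in IT and 9 and 5 in SW, beside 7.91% and 6.43% of all genes in IT and 6.2% and 7.47% in SW, with median log2 ratios of -0.93 and -1.17 in IT and -0.85 and -0.59 in SW.

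Rubisco takes its large subunit from the chloroplast genome and its small subunits from nuclear genes. RBCS3B (AT5G38410) had 4233, 717 and 523 FPKM in IT and 5817, 364 and 329.9 FPKM in SW, with log2 ratios of -2.56 and -3.02 in IT and -4.00 and -4.14 in SW, and RBCS2B (AT5G38420) had log2 ratios of -1.53 and -2.66 in IT and -3.74 and -3.84 in SW. Those of rbcL, the partner gene in the chloroplast, stayed between -0.45 and 0.22. RBCS1B (AT5G38430) was higher in IT after 1 week, with a log2 ratio of 1.44, and RBCS1A was listed at 0 in all 6 groups. These genes are near-identical copies, and the counting could split their reads unevenly. PSAD2 (AT1G03130), a photosystem I subunit gene, had a log2 ratio of -1.69 in IT after 1 week. The 26 nuclear genes for plastid ribosomal proteins had median log2 ratios of 0.45 and 0.41 in IT and 0.00 and 0.40 in SW. Of these, 1 was higher in each comparison except SW after 1 week, where 0 were. The shares of all genes higher were 10% and 7.03% in IT and 7.81% and 6.54% in SW. The 4 nuclear NDH subunit genes had medians of -0.38 and -0.58 in IT and -0.46 and -0.32 in SW. Of them 0 were past 2-fold, beside 17.9% and 13.5% of all genes in IT and 14% and 14% in SW.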

How the data were processed

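RNA sequencing of entire aerial parts of Arabidopsis thaliana gave 18 libraries in 6 groups of 3. The deposited table holds FPKM values, per the file headers 1 value per gene and group, which the authors combined from the libraries. TopHat 1.4.1, Cuffdiff, Cufflinks 2.1.1 and the TAIR10 build are listed, per the submitters' processing notes. The settings, the annotation and any use of strand are not given in the sources. Depth per library is unknown, so no interval or floor is given.

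Genes with at least 1 FPKM in at least 1 group were kept. Ratios were log2((FPKM + 1)/(FPKM + 1)) of 2 groups, counted as higher or lower at 1 or more or -1 or less. An exact 0 was treated as missing. With 1 value per group, limma, leaving out replicates and a replicate block could not be run, so no test was made. Percentages of all genes past 2-fold stand beside the counts. The 9 comparisons were cold against warm (4), 2 weeks against 1 week (2) and SW against IT (3), beside 2 differences of responses. Alternatives were pseudocounts of 0.1 and 10, filters of 10 FPKM and of 300 bases, no filter, and 1 copy of inverted repeat genes. The last of these removed no member. Further alternatives were 4 scalings (12 nuclear reference genes, upper quartile, nuclear sum, quantile normalization). Added after seeing the data was scaling to the 11 reference genes of at least 1 FPKM. The calling of ratios was tested on simulated data.

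Members, functional classes, nuclear lists and markers were chosen with earlier results of these data known, and no pattern is independent support of those results. Named were, in each class, the member of highest geometric mean, those of highest and lowest ratio in each cold comparison (geometric mean of at least 5 FPKM), the core genes psbA, psbD, psbC, psaA, psaB, rbcL, atpB, ndhF, rpoA, rpoB, rpoC1, rpoC2, accD, clpP, matK, ycf1 and ycf2, members at 0 in some group, and of the nuclear lists the 2 highest and 2 lowest ratios per cold comparison with SIG5, RPOTP, CP29A and CP31A. Further members were named after their values were seen, because they passed 2-fold or lay in a gene run described. Names of chloroplast loci follow standard nomenclature and were checked by order against the TAIR10.1 RefSeq annotation, which supplied coordinates, lengths and sequences. 7 loci are also named in notes of that annotation, ATCG00430 (ndhK) under an older name and ATCG00420 (ndhJ) as the source of a pseudogene. The share of FPKM weighted by length, which had been planned, was not computed, because mitochondrial loci had no lengths. 2 ribosomal protein members are not reported here by name or shown in the plots that name genes, but enter the counts and medians. Python 3.11.15, numpy 2.4.6, pandas 2.3.3 and matplotlib 3.10.9 were used.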

Additional observations from a re-analysis of the deposited data

Results flagged for a closer look

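For 6 genes the cold response pointed in opposite directions in the ecotypes and differed by at least 1 on the log2 scale. With 1 combined value per group the difference was not tested. The share of all genes that met both conditions was not computed. Differences of at least 1, whatever the directions, were found for 7.32% of all genes at 1 week and 7.28% at 2 weeks. After 1 week, petN had a log2 ratio of 0.99 in IT and -0.13 in SW, a difference (SW minus IT) of -1.12, and its lowest value was that of IT warm. psbT went the other way, with -0.66 in IT and 0.87 in SW and a difference of 1.54. After 2 weeks, psbA had 0.66 in IT and -0.72 in SW, a difference of -1.38. psbE had 0.54 and -1.05, a difference of -1.59, and ndhG, at or below 1.27 FPKM in every group, had 0.41 and -0.72, a difference of -1.13. atpB alone at 2 weeks was lower in IT and higher in SW, with -1.03 and 0.28 and a difference of 1.31.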

How the results depend on the processing

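Of the 11 alternatives, that of 1 copy of inverted repeat genes removed no member, so it could change nothing and is no check. Under the alternatives, no median of the protein genes kept changed sign in any of the 9 comparisons or 2 differences of responses. Cold against warm, it ranged from -0.50 to -0.11 in IT after 1 week, 0.04 to 0.25 in IT after 2 weeks, -0.50 to -0.13 in SW after 1 week and -0.38 to -0.09 in SW after 2 weeks. Counts past 2-fold were less steady, since many members lie near the limit. With a pseudocount of 0.1, the counts higher were 7 and 12 in IT after 1 and 2 weeks of cold, 2 in SW after 1 week, 5 and 7 at 2 weeks against 1 week in IT and SW, and 3 and 5 for SW against IT in the warm and after 2 weeks. The counts lower were 9 in SW after 1 week, and 3 and 7 for SW against IT after 1 and 2 weeks. With a pseudocount of 10, the counts higher in cold against warm were 1, 2, 0 and 4 in IT and SW after 1 and 2 weeks, those lower 4 in IT after 2 weeks and 3 and 6 in SW, the count lower in SW against IT after 2 weeks was 2, and the median in SW after 1 week was -0.13.

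A further run kept the 43 members with a gene span, introns included, of at least 300 bases. The counts lower were then 0 and 3 in IT and 0 and 2 in SW after 1 and 2 weeks. Most lower calls therefore came from shorter genes such as psbI, psbK and psbM. The counts higher were 0 and 5 in SW, 2 weeks against 1 week gave 1 higher and 0 lower in IT and 0 higher in SW, and SW against IT gave 0 higher in the warm, 0 lower after 1 week, and 1 higher and 1 lower after 2 weeks. A filter of 10 FPKM left 37 members, with 4 higher in IT after 2 weeks and a median of -0.021 for the difference of responses at 2 weeks. Counts lower in IT and SW after 1 week became 5 and 9 with reference genes, with or without the 1 under 1 FPKM, 6 and 9 with the nuclear sum and 6 and 8 with quantile normalization, and 5 in IT with the upper quartile. The count higher in SW after 2 weeks became 5 with all 12 reference genes and 5 with the nuclear sum. The nuclear sum also gave 5 higher in IT at 2 weeks against 1 week, a median of -0.50 in IT after 1 week, and for SW against IT 2 lower in the warm and 1 higher and 8 lower after 2 weeks, and quantile normalization 2 lower in the warm.

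No paired analysis was possible because the columns carry no replicate numbers, and for the same reason no library was left out. Without counts or library values, neither depth nor the spread between plants can be set against any difference here.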
